A study of Homo sapiens with 4 samples.

Results

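The genes described here are 9 replacement histone genes that lie outside the HIST clusters, H3F3A, H3F3B, H2AFZ, H2AFV, H2AFX, H2AFY, H2AFJ, H1F0 and H1FX, together with SLBP, whose protein binds the mRNAs of the cluster genes. They were taken by symbol from a table of 25277 symbols, and all 10 were found with a value above 0 in each library. Expression was measured by RNA sequencing in Mino and Z138, established human lines of mantle cell lymphoma, a cancer of B cells. The 4 groups were Mino carrying a hairpin against BTK (Mino shBTK), Mino carrying a control vector (Mino control), Z138 carrying the same kind of hairpin (Z138 shBTK) and Z138 carrying the control vector (Z138 control). BTK is the kinase that relays signals from the B cell receptor. All 4 cultures were stable transfectants with a doxycycline-inducible vector, and all 4, controls included, had doxycycline for 48 hours. Each group had 1 library. What the control vector expressed, and whether a transfectant was 1 clone, is not stated in the labels.

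Most histone protein is made in S phase from the HIST cluster genes, whose mRNAs lack a poly(A) tail and end in a stem-loop that SLBP binds. Replacement histones are mostly made in every phase of the cell cycle from polyadenylated mRNAs and enter chromatin independently of DNA replication. Of the genes here, H2AFX also holds a match to the stem-loop, as described below. H3.3 marks transcribed genes and telomeres, H2A.Z marks promoters, H2A.X is phosphorylated around DNA breaks, including those of class switching in B cells, and linker histones bind the DNA between nucleosomes.

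The annotated mRNA ends were set beside those of the cluster genes. A script searched GENCODE release 29 protein-coding transcripts, in the sense strand, for a poly(A) signal (AATAAA or ATTAAA) in the last 50 bases with at least 12 bases after it. It was found for 9 of the 10 genes, beside 80.5% of all protein-coding genes and 57.1% of 35 HIST genes whose models hold 50 or more bases after the stop codon. The count of 9 of 10 is near the share of all protein-coding genes. H2AFY is the gene with no match in its models. The windows of 30 bases are printed below with the signal in capitals.
H3F3A: tgtaagtttgctATTAAAatacattaaact
H3F3B: ggatgagactaaAATAAAatttttgaagtt
H2AFZ: gtggataagttcAATAAAggtcatatccca
H2AFV: ttatatgatggaATTAAAtatattctgtgt
H2AFX: tggactaattttATTAAAggattgtttttt
H2AFJ: ccggcgggagccAATAAAgttggtgaaaat
H1F0: ttaaaactttaaAATAAAttggaaaaggga
H1FX: ttttttgggcacAATAAAgcgtttaaacct
SLBP: ggatattgcaaaAATAAAaaggaaagaacc

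H2AFX also held a match to the histone stem-loop, 49 bases after its stop codon, and the other 9 genes held none in their models. The stem-loop was found in 31 of those 35 HIST genes and in 0.529% of all protein-coding genes. HIST1H2BH had the highest mean level among HIST genes with a match, and its model also held AATAAA, with 16 bases after it. The stem-loops of H2AFX and HIST1H2BH are shown in capitals.
H2AFX: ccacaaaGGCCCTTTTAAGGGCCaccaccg
HIST1H2BH: acccaaaGGCTCTTTTCAGAGCCacttaat
H2AFX, H2AFJ, H1F0 and H1FX have a single exon in the models used, and H3F3B, H2AFZ, H2AFV, H2AFY and SLBP have 4, 5, 5, 9 and 8. The model taken for H3F3A had 3 exons.

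Near-identical copies limit what can be read for H3F3A. H3F3AP4, on chromosome 2, is annotated as a transcribed pseudogene, and its 411 bases were identical to the coding sequence of H3F3A, on chromosome 1, at 411 of 411 positions. H3F3B, on chromosome 17 and overlapped by UNK on the other strand, codes for the same H3.3 protein with 88 other bases out of 411. The first 90 coding bases are printed with capitals where H3F3A or H3F3AP4 differs from H3F3B, at 21 positions.
H3F3A: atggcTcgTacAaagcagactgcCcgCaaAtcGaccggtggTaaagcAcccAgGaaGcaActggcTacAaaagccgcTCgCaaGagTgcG
H3F3AP4: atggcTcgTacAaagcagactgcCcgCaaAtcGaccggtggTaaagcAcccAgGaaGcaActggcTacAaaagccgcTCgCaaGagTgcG
H3F3B: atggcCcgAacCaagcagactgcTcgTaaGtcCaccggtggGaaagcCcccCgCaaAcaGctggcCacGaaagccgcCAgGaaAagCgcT
The H2A.Z genes H2AFZ and H2AFV shared 311 of 387 coding bases (80.4%). Of their first 90 bases, 19 differ and are in capitals.
H2AFZ: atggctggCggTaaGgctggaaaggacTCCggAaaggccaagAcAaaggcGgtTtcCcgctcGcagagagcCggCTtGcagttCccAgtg
H2AFV: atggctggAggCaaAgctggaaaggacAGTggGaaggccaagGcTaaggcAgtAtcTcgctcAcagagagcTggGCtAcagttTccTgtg

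Levels are FPKM, fragment counts scaled by transcript length and by the size of the library. Read depth is unknown, and the columns summed to 669013 to 740192 FPKM with 14953 to 16007 symbols above 0. BTK stood at 26.6% of the control level in Mino shBTK and at 24.3% in Z138 shBTK. The B cell markers MS4A1, CD79A, CD79B and PAX5 were between 14.5 and 744 FPKM, and the lymphoma marker SOX11 between 19.8 and 23.6. CCND1, the cyclin gene whose overexpression defines this lymphoma, was at 600.5 and 591 FPKM in Z138 shBTK and control but at 2.62 and 3.18 FPKM in Mino shBTK and control. This marker thus goes against the label of the Mino libraries, and the differences between lines are those between the libraries labelled Z138 and Mino. The epithelial markers EPCAM and KRT18 were at 0 to 0.0142 FPKM in the Z138 libraries and at 6.07 to 7.56 FPKM in the Mino libraries; their part in differences between the lines was not tested. T cell and myeloid markers were at 0 to 0.227 FPKM apart from CD3E, at 2.07 and 1.69 FPKM in Z138 shBTK and control. The fibroblast marker COL1A1 was at 3.57 and 4.55 FPKM in Mino shBTK and control. In Z138 shBTK and control COL1A1 was at 0.679 and 0.913 FPKM, and COL1A2 was at 0 to 0.0478 FPKM in all 4 libraries. The Z138 ratios of shBTK to control went down with GC content across genes (Spearman rho −0.57 over 10483 genes, which are not independent replicates, against 0.11 in Mino). H2AFX and H1FX are GC-rich (66.4% and 68.6% of transcript bases).

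H2AFZ had the highest FPKM of the 10 genes in each library, between 509 and 635 FPKM. H3F3B, H1FX, H2AFV, H2AFX, H2AFY and SLBP lay between 63.4 and 375 FPKM. H2AFJ was at 1.22 to 3.76 FPKM. H1F0 ranged between 0.0112 and 44.1 FPKM and H3F3A between 0.0118 and 7.61 FPKM. Among 17650 symbols above 0 in any library, H2AFZ ranked 132 to 164. H3F3B ranked 205 and 211 in Z138 shBTK and control, against 507 and 508 in Mino shBTK and control. H2AFX ranked 1152 and 991 in Z138 shBTK and control, against 376 and 414 in Mino shBTK and control, so H3F3B stood above H2AFX in Z138 and below it in Mino. The levels of SLBP and H2AFX overlapped in Z138, and H3F3A overlapped H2AFJ in both lines and H1F0 in Z138.

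**Figure D1:**
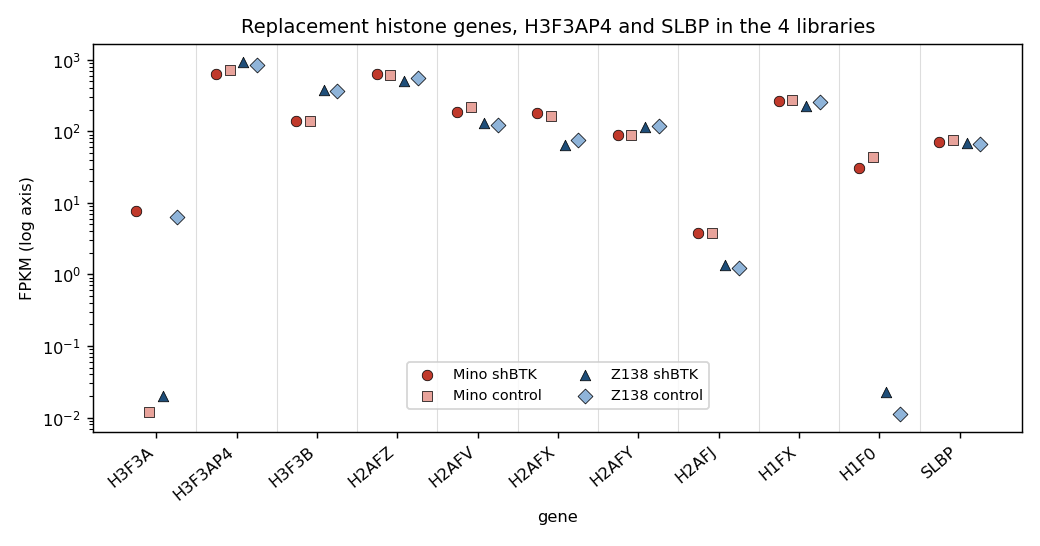
FPKM on a log axis for each gene in each of the 4 libraries, 1 point per library, with H3F3AP4 beside H3F3A. H3F3A is near 0 in Mino control and Z138 shBTK, H1F0 is near 0 in both Z138 libraries, and the points of the other genes lie close together within a line.

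The first comparison asked whether knockdown of BTK changed the 10 genes. None of the 10 genes passed the test across both lines (limma on log2(FPKM + 1) with line as the block, Benjamini-Hochberg adjusted p of 0.05). All 10 had an adjusted p of 1.00 in limma and 0 of 10 had an unadjusted p under 0.05, beside 0.122% of 11484 tested symbols called (0.061% higher and 0.061% lower) and 2.79% with an unadjusted p under 0.05. A level is an average over a culture, so fewer cells expressing a gene and less RNA per cell cannot be told apart. The 95% intervals of the 9 genes other than H3F3A lay between −0.63 and 0.36 on the log2 scale, so changes of that size remain possible. Of the 10 genes, 8 were within 1.2-fold in both lines, a share near the 70.7% of all tested symbols. The signs of the Mino and Z138 ratios were opposite for 9 of 10 genes, against 56.2% of all tested symbols. After trends with GC content and transcript length were removed they were opposite for 7 of 10, against 55% of symbols. The lines were the only replication, so these p-values measure how alike 2 lines responded, against a spread shared largely across genes.

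H3F3B was at 139 FPKM in Mino shBTK, against 139.8 FPKM in Mino control, and at 375 FPKM in Z138 shBTK, against 367 FPKM in Z138 control. Its mean log2 ratio was 0.01 (SE 0.11). Within each line the 2 libraries were nearly equal. H3F3A was listed at 7.61 FPKM in Mino shBTK, against 0.0118 FPKM in Mino control, and at 0.0200 FPKM in Z138 shBTK, against 6.37 FPKM in Z138 control. The ratios, 3.09 in Mino and −2.85 in Z138 on the log2(FPKM + 1) scale, point in opposite ways, and their mean of 0.12 had an SE of 1.07. Being at least 1.5-fold in both lines in opposite directions held for this 1 gene of the 10 and for 0.183% of all tested symbols.

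H3F3AP4 carried nearly all of the signal of that shared sequence. It was at 627 FPKM in Mino shBTK, against 726 FPKM in Mino control, and at 939.5 FPKM in Z138 shBTK, against 853 FPKM in Z138 control. H3F3A made up 1.199% of the sum of both symbols in Mino shBTK and 0.00162% in Mino control, and 0.00213% in Z138 shBTK and 0.741% in Z138 control. The sum was 635 FPKM in Mino shBTK, against 726 FPKM in Mino control (log2 ratio −0.19), and 939.5 FPKM in Z138 shBTK, against 859.7 FPKM in Z138 control (log2 ratio 0.13). Transcripts of H3F3A and of its copy cannot be told apart from these values, so the level of H3F3A itself is uncertain.

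H2AFZ, the main H2A.Z gene, was at 635 FPKM in Mino shBTK, against 603 FPKM in Mino control, and at 509 FPKM in Z138 shBTK, against 551 FPKM in Z138 control (mean log2 ratio −0.02, SE 0.12). H2AFV, the second H2A.Z gene, was at 186 FPKM in Mino shBTK, against 217 FPKM in Mino control, and at 129 FPKM in Z138 shBTK, against 120.4 FPKM in Z138 control (mean log2 ratio −0.06, SE 0.13). The pair had opposite signs within each line as deposited, but in Z138 both were below 0 after trends with GC content and transcript length were removed (H2AFZ −0.10, H2AFV −0.01). H2AFX was at 181 FPKM in Mino shBTK, against 164 FPKM in Mino control, and at 63.4 FPKM in Z138 shBTK, against 75.9 FPKM in Z138 control. Its Z138 log2 ratio of −0.25 was −0.14 after trends with GC content and transcript length were removed, and the 194 tested genes within 1 percentage point of its GC content had a median of −0.09 in Z138. H2AFX was thus on the higher side in Mino shBTK and on the lower side in Z138 shBTK. H2AFY, whose product macroH2A1 carries a large extra domain, was at 88.9 FPKM in Mino shBTK, against 87.9 FPKM in Mino control, and at 115 FPKM in Z138 shBTK, against 117 FPKM in Z138 control. H2AFJ, whose product accumulates in senescent human fibroblasts, was at 3.73 FPKM in Mino shBTK, against 3.76 FPKM in Mino control, and at 1.35 FPKM in Z138 shBTK, against 1.22 FPKM in Z138 control. Both genes were nearly level within each line as deposited. After the correction H2AFY stood at 0.13 in Mino and −0.15 in Z138. That correction used the longest model, of 10982 bases and 44.0% GC for H2AFY and 3107 bases and 42.6% GC for H2AFJ. The models searched above for mRNA ends had 2789 bases and 54.9% GC for H2AFY and 644 bases and 62.9% GC for H2AFJ. The part of this choice in the corrected values was not tested.

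Of the linker histones, H1F0 had the largest ratio of the 9 genes other than H3F3A. This gene, whose product accumulates in resting and differentiated cells, was at 30.8 FPKM in Mino shBTK, against 44.1 FPKM in Mino control, a log2 ratio of −0.51. The Mino shBTK level was 69.7% of the control level, and with 1 library a group this difference has no replicate check. In Z138 it was at 0.0228 FPKM in shBTK and 0.0112 FPKM in control, too low for a ratio to be read. At 1.5-fold on the log2(FPKM + 1) scale 1 of the 10 genes, H3F3A, was past the limit in each line. It was on the higher side in Mino, with 2.16% of tested symbols past the limit (0.923% higher, 1.24% lower), and on the lower side in Z138, with 1.76% past it (0.94% higher, 0.819% lower). H1FX, a broadly expressed linker histone overlapped by H1FX-AS1 on the other strand, was at 268 FPKM in Mino shBTK, against 277 FPKM in Mino control, and at 228 FPKM in Z138 shBTK, against 256 FPKM in Z138 control. Its Z138 log2 ratio was −0.17 as deposited and −0.05 after the GC and length correction.

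SLBP was at 70.7 FPKM in Mino shBTK, against 74.8 FPKM in Mino control, and at 68.9 FPKM in Z138 shBTK, against 65.9 FPKM in Z138 control. Its log2 ratios were −0.08 in Mino and 0.06 in Z138, with a mean of −0.01 (SE 0.12).

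**Figure D2:**
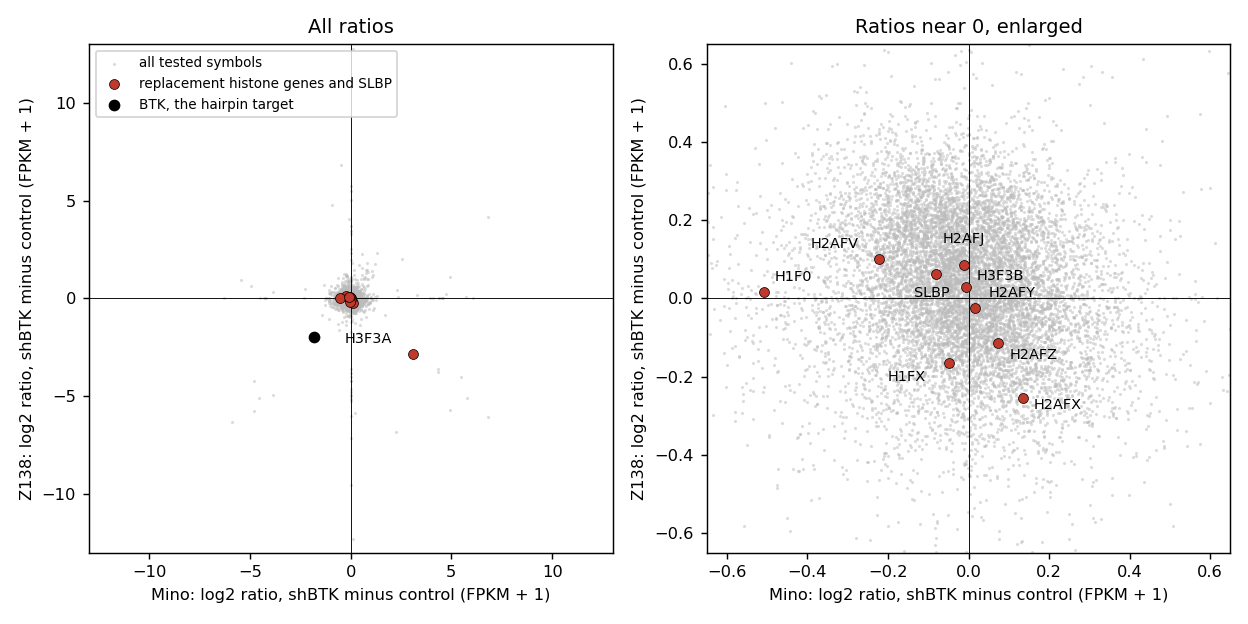
Log2 ratio of shBTK to control on the log2(FPKM + 1) scale in Mino (x) and Z138 (y), 1 point per symbol; left, all tested symbols, the 10 genes and BTK; right, the ratios near 0 enlarged. BTK is low in both lines, H3F3A is at 3.09 in Mino and −2.85 in Z138, and the other 9 genes lie inside the cloud of all symbols, with H1F0 farthest left at −0.51.

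The cluster genes, whose mRNAs SLBP binds, were set beside the replacement genes. Of 71 HIST symbols in the table, 49 had a mean of at least 1 FPKM and were tested. In Z138, 45 of the 49 had a ratio above 0 and 34 were at least 1.5-fold higher in shBTK (0.94% of all tested symbols), with a median log2 ratio of 0.87, while 5 of the 10 replacement genes and SLBP were above 0, with a median of −0.00. The median over all tested symbols was 0.03 in Z138, with 6354 of 11484 above 0. In Mino the medians were −0.05 for the cluster genes, −0.01 for the replacement genes and SLBP and −0.01 for all tested symbols. There 23 of the 49 cluster genes were above 0, against 5474 of 11484 tested symbols. At 1.5-fold, 10 of the 49 were higher and 4 lower in Mino shBTK, beside 0.923% and 1.24% of all tested symbols. In limma 21 of the 49 had an unadjusted p under 0.05, beside 2.79% of all tested symbols. The difference between the gene sets was not tested. By limma 2 of the 49 were called, beside 0.122% of all tested symbols, both higher: the linker histone gene HIST1H1E, at 2.99 and 0.913 FPKM in Mino shBTK and control and 5.61 and 1.51 FPKM in Z138 shBTK and control (log2 ratio 1.23, SE 0.15, adjusted p = 0.0364), and the H3 gene HIST2H3D, at 1.05 and 0 FPKM in Mino shBTK and control and 3.001 and 0.881 FPKM in Z138 shBTK and control (1.06, SE 0.13, adjusted p = 0.0419). HIST2H3D passed the filter on low values through the shBTK libraries alone. With 0 FPKM in Mino control, HIST2H3D is not tested where symbols listed at 0 are left out. Both adjusted p-values from limma lie near the limit of 0.05. Whether these 2 calls hold under the other processing settings described below is not given here. Among HIST symbols averaging 5 FPKM or more, the H3 gene HIST1H3B had the highest mean ratio, 1.40 (SE 0.33), with 20.0 FPKM in Z138 shBTK against 3.40 FPKM in Z138 control, and the linker gene HIST1H1C the lowest, −0.31 (SE 0.15). The 71 HIST symbols summed to 551 FPKM in Z138 shBTK, against 377 FPKM in Z138 control, and to 376 FPKM in Mino shBTK, against 451 FPKM in Mino control. Those sums were 23.3% of the sum of the 9 replacement genes and H3F3AP4 in Z138 shBTK and 16.0% in Z138 control, and 17.3% in Mino shBTK and 19.9% in Mino control. HIST1H2BK and HIST1H1C alone held 38.1% to 63.8% of the cluster sum. Selection of poly(A) RNA is not stated in the labels, so the low cluster levels cannot be read as low histone synthesis.

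**Figure D3:**
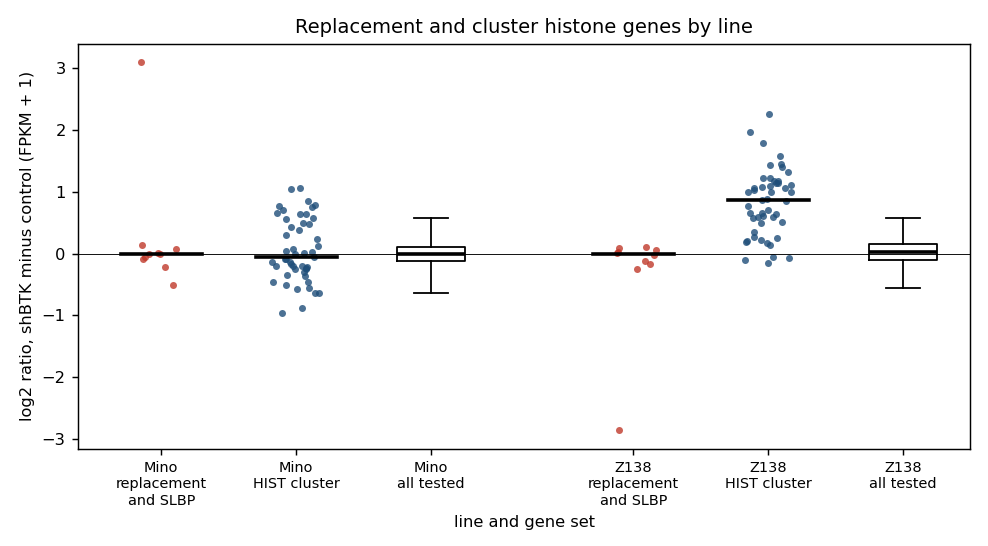
Log2 ratio of shBTK to control (FPKM + 1) by line for the 10 genes, the 49 tested HIST symbols (points, with a bar at the median) and all tested symbols (box: quartiles, whiskers: percentiles 1 and 99). The HIST points sit mostly above 0 in Z138, with a median of 0.87, and the medians of the 10 genes are at −0.01 in Mino and −0.00 in Z138.

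Genes whose proteins place or process these histones did not pass for the hairpin either, in 6 lists drawn up with earlier results of these data known. By limma 0 members were called in any of them, beside 0.122% of all 11484 tested symbols. In the same test 0 had an unadjusted p under 0.05, beside 2.79% of all tested symbols. A count of 0 called is near that share and is not read as a result about these lists. The highest and lowest mean ratios named are among list members averaging 5 FPKM or more. Among 17 tested chaperones of H3 and H4, median log2 ratios were −0.04 in Mino and 0.01 in Z138. The highest mean ratio belonged to DEK, an H3.3 chaperone, at 0.22 (SE 0.12), and the lowest to CHAF1B, a subunit of the chaperone CAF-1, at −0.09 (SE 0.13). Among 23 genes of H2A.Z deposition and removal the medians were −0.06 in Mino and 0.10 in Z138. ACTR6, a subunit of the SRCAP complex that loads H2A.Z, had 0.20 (SE 0.13), and the acetyltransferase KAT5 −0.21 (SE 0.13). Among 14 tested genes of H2A.X signalling the medians were −0.15 in Mino and 0.13 in Z138, with 2 members above 0 in Mino and 13 in Z138. Of all 11484 tested symbols, 5474 were above 0 in Mino and 6354 in Z138. At 5 FPKM or more BRCA1, a repair gene, had the highest mean ratio, 0.08 (SE 0.13), and SSRP1, a subunit of the chaperone FACT, the lowest, −0.08 (SE 0.14).

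Of 9 linker histone partners, 1 was above 0 in Mino and 8 in Z138, with medians of −0.15 and 0.16. Over all 11484 tested symbols, 5474 were above 0 in Mino and 6354 in Z138. The list counts were made without the GC and length correction, and the part of those trends in them was not tested. At 5 FPKM or more SET, a histone chaperone, had the highest mean ratio at 0.07 (SE 0.13), and PTMA the lowest at −0.23 (SE 0.18). PTMA, which codes for the histone H1 binding protein prothymosin alpha, was at 1215 FPKM in Mino shBTK, against 1887 FPKM in Mino control, and at 2812 FPKM in Z138 shBTK, against 2480 FPKM in Z138 control. Histone pre-mRNA processing and decay genes, which act with SLBP, stood at −0.04 (Mino) and 0.12 (Z138) as medians of 33 tested genes. At 5 FPKM or more DDX19B, an RNA helicase, had the highest mean ratio there, 0.22 (SE 0.13), and TUT1, a nucleotidyl transferase, the lowest, −0.15 (SE 0.13). Among 16 S phase and proliferation genes the medians were −0.07 in Mino and 0.01 in Z138. CDC6, a replication licensing factor, was at 39.8 FPKM in Mino shBTK, against 31.5 FPKM in Mino control, and at 54.7 FPKM in Z138 shBTK, against 53.3 FPKM in Z138 control. The transcription factor gene E2F1 was at 39.7 FPKM in Z138 shBTK, against 53.5 FPKM in Z138 control, with 71.7 FPKM in Mino shBTK, against 72.0 FPKM in Mino control.

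Between the lines the same 10 genes differed more. The test, from the same limma model, called 6 of the 10: H3F3B and H2AFY were higher in Z138, and H2AFX, H2AFV, H2AFJ and H1F0 were lower in Z138. Such differences were common, since 67.4% of all tested symbols were called, 28.7% as higher and 38.8% as lower, so 6 of 10 is near the background. Both Z138 libraries lay outside the range of both Mino libraries for 9 of the 10 genes, against 86.1% of all tested symbols, and 5 of 10 differed by at least 1.5-fold, against 50.1%. A median log2 difference of −0.12 over all tested symbols is the level against which these values stand; it was −0.22 with columns scaled to the same sum and 0.05 with quantile normalization. The 2 libraries of a line differed in vector and were not repeat cultures.

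H1F0 showed the widest difference. It was at 0.0228 and 0.0112 FPKM in Z138 shBTK and control, against 30.8 and 44.1 FPKM in Mino shBTK and control. Thus the linker histone gene was near 0 in both Z138 libraries, with no overlap. On the log2(FPKM + 1) scale the difference was −5.22 (SE 0.17, adjusted p = 2.03e-07 in limma). Its size is set by the pseudocount, since Z138 is near 0: it was −6.18 with a pseudocount of 0.5 and −8.31 with 0.1. H1F0 passed the filter on low values through its Mino libraries alone. A difference of at least 10-fold in both pairs of libraries with the same vector was seen for this 1 gene of the 10 and for 1.94% of tested symbols. H1FX, the other linker gene here, was at 228 and 256 FPKM in Z138 shBTK and control, against 268 and 277 FPKM in Mino shBTK and control, and did not pass (log2 difference −0.18, SE 0.12, adjusted p = 0.205 in limma). With each column scaled to the same sum it did pass (−0.29, adjusted p = 0.046 in limma).

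H3F3B was the gene with the largest difference toward Z138. Its levels were 375 and 367 FPKM in Z138 shBTK and control, against 139 and 139.8 FPKM in Mino shBTK and control, a log2 difference of 1.40 (SE 0.11, adjusted p = 1.63e-05 in limma). H3F3A gave no usable difference (−0.11, SE 1.07, adjusted p = 0.936 in limma), since its 4 values crossed between the lines. The copy H3F3AP4 was higher in Z138 by 0.41 (SE 0.13, adjusted p = 0.0222 in limma). Whether the call of H3F3AP4 holds with columns scaled to the same sum or under the other settings is not given here. H2AFY was at 115 and 117 FPKM in Z138 shBTK and control, against 88.9 and 87.9 FPKM in Mino shBTK and control (log2 difference 0.39, SE 0.12, adjusted p = 0.0179 in limma). With columns scaled to the same sum its difference was 0.27 and did not pass (adjusted p = 0.0685 in limma, 0.00723 to 0.0288 under the other settings).

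Lower in Z138 stood the damage-marking variant H2AFX, at 63.4 and 75.9 FPKM in Z138 shBTK and control, against 181 and 164 FPKM in Mino shBTK and control (log2 difference −1.30, SE 0.13, adjusted p = 6.52e-05 in limma). After the GC and length correction the difference was −1.14 and passed (adjusted p = 0.000548 in limma). H2AFV was at 129 and 120.4 FPKM in Z138 shBTK and control, against 186 and 217 FPKM in Mino shBTK and control (−0.68, SE 0.13, adjusted p = 0.00181 in limma). H2AFJ was at 1.35 and 1.22 FPKM in Z138 shBTK and control, against 3.73 and 3.76 FPKM in Mino shBTK and control (−1.06, SE 0.14, adjusted p = 0.000236 in limma). For these 3 genes the Z138 and Mino libraries did not overlap.

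H2AFZ was at 509 and 551 FPKM in Z138 shBTK and control, against 635 and 603 FPKM in Mino shBTK and control, and did not pass (−0.22, SE 0.12, adjusted p = 0.125 in limma). It passed with columns scaled to the same sum (−0.34, adjusted p = 0.0251 in limma) and with quantile normalization (−0.34, adjusted p = 0.0317 in limma). SLBP was at 68.9 and 65.9 FPKM in Z138 shBTK and control, against 70.7 and 74.8 FPKM in Mino shBTK and control (−0.11, SE 0.12, adjusted p = 0.448 in limma), and its 95% interval was −0.39 to 0.17.

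**Figure D4:**
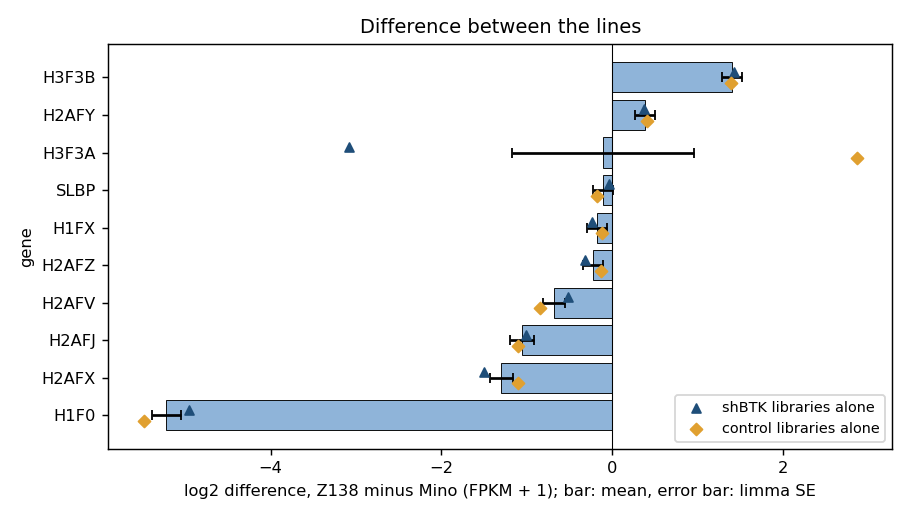
Log2 difference Z138 minus Mino (FPKM + 1) for each gene: bars give the limma mean over both vectors, error bars its SE, triangles the shBTK libraries alone and diamonds the control libraries alone. H3F3B is highest at 1.40 and H1F0 lowest at −5.22, and for H3F3A the 2 pairs of libraries lie on opposite sides of 0.

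FPKM values are per length, so shares of the summed FPKM of each histone class can be described in every library. The transcript lengths used for that scaling were not given in the sources used here. Annotated models of a gene can differ in length, such as 10982 and 2789 bases for H2AFY and 3107 and 644 bases for H2AFJ. The shares and ranks below are therefore those of FPKM, and whether shares of transcripts match them was not tested. Among the 5 H2A variants, H2AFZ held 62.2% and 63.7% of the summed FPKM in Z138 shBTK and control, against 58.0% and 56.1% in Mino shBTK and control. The share of H2AFX was 7.75% and 8.76% in Z138 shBTK and control, against 16.5% and 15.3% in Mino shBTK and control. H2AFY held 14.0% and 13.5% in Z138 shBTK and control, against 8.12% and 8.17% in Mino shBTK and control. H2AFX outranked H2AFY in Mino, and H2AFY outranked H2AFX in Z138.

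Of the H2A.Z pair, H2AFZ made up 79.8% and 82.1% in Z138 shBTK and control, against 77.4% and 73.6% in Mino shBTK and control. Of the H3.3 signal, H3F3A and H3F3AP4 together made up 71.5% and 70.1% in Z138 shBTK and control, against 82.0% and 83.8% in Mino shBTK and control, with the remainder from H3F3B. Of the linker histone genes (H1F0, H1FX and HIST1H1A to HIST1H1E), H1FX held 63.4% and 67.0% in Z138 shBTK and control, against 69.2% and 61.6% in Mino shBTK and control. HIST1H1C held 32.5% and 31.8% in Z138 shBTK and control, against 21.9% and 28.2% in Mino shBTK and control, and H1F0 held 0.00633% and 0.00295% in Z138 shBTK and control, against 7.94% and 9.80% in Mino shBTK and control. These shares rest on 1 library a group and carry no test. Selection of poly(A) RNA is not stated, so the linker shares, which include HIST1H1 genes, are shares of signal and not of histone made. The H3.3 shares rest mostly on H3F3AP4, whose transcripts cannot be told apart from those of H3F3A.

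**Figure D5:**
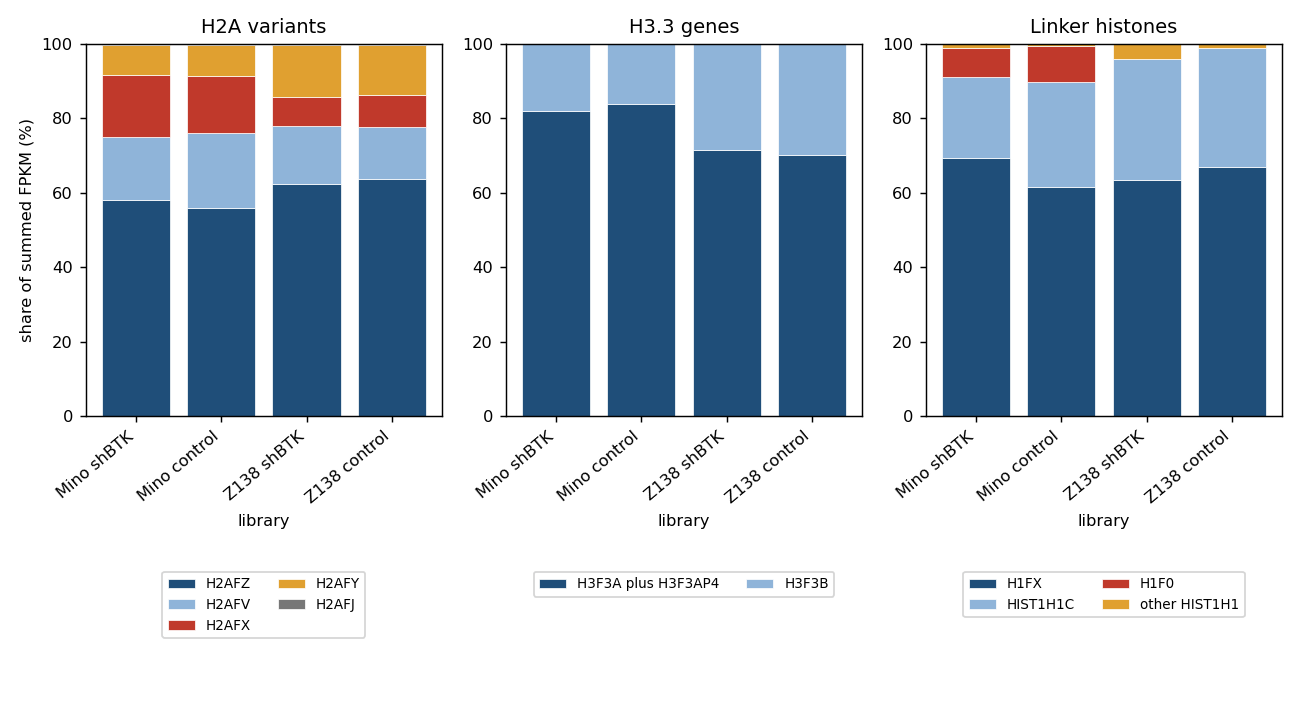
Share of summed FPKM (%) in each library for the 5 H2A variants, the H3.3 genes and the linker histone genes, stacked to 100. H2AFX holds 7.75% and 8.76% in Z138 and 16.5% and 15.3% in Mino, and H1F0 is visible only in Mino.

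Counts of histone handling genes called between the lines are read against the 67.4% of all tested symbols called (28.7% higher, 38.8% lower). The genes named at the ends of a list are those among members averaging 5 FPKM or more. Of 17 chaperones of H3 and H4, 4 were called higher and 8 lower in Z138, near that background. IPO4, which imports H3 and H4 into the nucleus, was at 41.3 and 42.5 FPKM in Z138 shBTK and control, against 6.66 and 7.21 FPKM in Mino shBTK and control. MCM2, a helicase subunit that also binds H3 and H4, was at 95.3 and 100.2 FPKM in Z138 shBTK and control, against 226 and 232 FPKM in Mino shBTK and control. Of 23 H2A.Z genes, 9 were higher and 7 lower, also near it, with INO80 (log2 difference 1.26) and NAP1L4 (−0.83) at the ends. Of 14 H2A.X signalling genes 3 were higher and 4 lower, with the DNA break kinase gene PRKDC (0.57) and the phosphatase gene EYA3 (−1.38) at the ends. Of 9 linker partners 3 were higher and 5 lower, with NPM1 (0.97), which codes for the nucleolar chaperone nucleophosmin, and the chromatin protein gene HMGA1 at the ends. HMGA1 was at 417 and 489 FPKM in Z138 shBTK and control, against 936 and 874 FPKM in Mino shBTK and control. Of 33 processing and decay genes 4 were higher and 13 lower, with FEM1A (1.54) and FEM1C (−1.24), ubiquitin ligase adaptors, at the ends, and of 16 S phase genes 1 was higher and 10 were lower. The shares called in the H2A.X and the processing lists lay below that of all tested symbols. CCNE1, the cyclin of S phase entry, was at 3.37 and 3.89 FPKM in Z138 shBTK and control, against 36.4 and 38.7 FPKM in Mino shBTK and control. Among the 49 tested HIST symbols 34 were higher and 6 lower in Z138, with a median log2 difference of 0.98, beside −0.20 for the 10 genes. The H2B genes HIST1H2BG (2.03) and HIST1H2BJ (−1.90) stood at the ends at 5 FPKM or more. The difference between these sets was not tested.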

How the data were processed

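RNA from 4 cultures was sequenced after column extraction and an Illumina TruSeq RNA library kit, per the labels' protocols. The authors deposited 1 table of FPKM values, 1 column per library, per the file headers. TopHat and hg19 are named in the submitters' processing notes; the quantification program, annotation, versions and the strand setting were not given in the sources used here.

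Values were analysed as log2(FPKM + 1), which understates changes of low genes. Limma 3.58.1 in R 4.3.3 (line and hairpin as additive terms, mean-variance trend) was run on the 11484 symbols averaging 1 FPKM or more, all 10 genes among them, with Benjamini-Hochberg adjustment over all of them. With 4 libraries, 1 residual degree of freedom remained, the difference in response between the lines. Limma added 6.88 degrees of freedom from the spread shared across genes. SEs and p-values therefore rest mostly on that shared spread, and do not measure spread between repeat cultures. Lines pair the libraries, since both vectors were put into each. Within a line, differences were described by size alone. GC content, transcript length and sequences came from GENCODE release 29 (GRCh38, a later build than hg19, so no coordinates are given); 94.0% of tested symbols matched. The correction removed spline trends on GC content and length, both taken from the longest transcript of each symbol. Genes named from each list were those with the highest and lowest mean ratio at 5 FPKM or more, and any called. The 10 genes and all lists were chosen with earlier results of these data known. The 4 libraries were used in full.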

Additional observations from a re-analysis of the deposited data

Results flagged for a closer look

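H3F3A was singled out because its 2 lines moved in opposite directions by at least 1.5-fold: its log2 ratio of shBTK to control was 3.09 in Mino and −2.85 in Z138. No test of this difference was run, because a line offered a single pair; it was not tested. H3F3AP4, identical to its coding sequence, was at 627 to 939.5 FPKM in the same libraries, and its log2 ratios were −0.21 in Mino and 0.14 in Z138. The part of that copy in the H3F3A values was not tested.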

How the results depend on the processing

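For the hairpin, 0 of the 10 genes were called by limma in each of the 11 alternatives that tested them, with 0 at an unadjusted p under 0.05; H3F3A and H2AFJ were not tested at a mean of 5 FPKM or more. Over all symbols 14 were called, against 2 with no filter on low values, 9 at 5 FPKM or more, 28 without symbols listed at 0, 7 with quantile normalization, 25 with a robust prior and 6 with the GC and length correction. Without the line as replicate block, 0 were called and 9 had an unadjusted p under 0.05. The cause of these shifts was not tested. Signs of small mean hairpin ratios turned with columns scaled to the same sum for H2AFZ (0.0083), H2AFY (0.024) and SLBP (0.019), with quantile normalization for H2AFZ (0.12), H2AFY (0.036) and SLBP (0.018), and with the GC and length correction for H2AFJ (−0.0079) and SLBP (0.0096). Between lines, H3F3A turned to 0.15 with quantile normalization. With the GC and length correction H2AFZ held 62.2% of the H2A variants in Z138 control, and H3F3A with its copy 69.0% of the H3.3 sum in Z138 shBTK. The H1F0 share of linker genes was 0.0256% in Z138 shBTK and 0.0065% in Z138 control, the HIST1H1C share 31.3% and 32.4%, and the H2AFY share 14.4% in Z138 control, 8.23% in Mino shBTK and 7.66% in Mino control. Genes called between the lines numbered 5 to 7, and apart from H2AFY, H2AFZ and H1FX each kept its call where tested. At 1.5-fold, 1 of the 10 genes was past the limit in each line under each alternative. Unknown read depth limits H1F0 in Z138, H3F3A and H2AFJ most.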

Other observations

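Among other variant histone genes, the centromeric H3 gene CENPA was at 14.8 and 15.3 FPKM in Z138 shBTK and control, against 25.2 and 25.1 FPKM in Mino shBTK and control (log2 difference −0.71, SE 0.13, adjusted p = 0.00138 in limma). H2AFY2, the second macroH2A gene, was at 0.0203 to 0.0810 FPKM in the 4 libraries, so nearly all macroH2A signal came from H2AFY. H3F3C was at 0.108 to 0.426 FPKM, and H2AFB1, H2AFB2, H2AFB3, H1FOO and H2BFWT were listed at 0 in all 4 libraries.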
